A study of Mus musculus with 12 samples.

Results

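Primary mouse aortic smooth muscle cells (MASMC), the contractile cells of the arterial wall, were profiled for small RNA after knockdown of OCT4 in vehicle. The comparison set the 3 arrays of the siOCT4-DMSO group against the 3 arrays of the siNT-DMSO group, which are 6 of the 12 arrays of the series. Arrays were assigned by the source name in their labels and by no measured value. Cells of both groups were kept in serum-free medium during a 48 h transfection, with siRNA against Oct4 in siOCT4-DMSO and with a non-target siRNA pool in siNT-DMSO, and both groups then received the vehicle DMSO for 24 h. The other 6 arrays came from cells that were given 10 µg/mL POVPC, an oxidized phospholipid, in place of vehicle after the same transfections. The mouse strain, sex and age are not given in the sources used here. The comparison addressed which small RNAs changed with OCT4 in SMC that had not been exposed to an oxidized phospholipid.

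The groups differed in the transfected siRNA pool as well as in OCT4. The RNA was labelled by joining a Cy3-bearing cytidine to any free 3′ end, so the signal of a transfected strand and the signal of a cellular small RNA cannot be told apart by the design. The sequences of the siRNA pools are not given in the sources used here. The transcript of the OCT4 gene itself was not analysed here, and the 50 gene probes carry no names here, so neither the knockdown nor the labelled cell type could be checked on these arrays. The labels number the replicates but do not say that they were separate cultures, so p-values measure only the spread between these arrays. In such bulk RNA, fewer cells of a type and less RNA per cell cannot be told apart.

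OCT4, the product of Pou5f1, is best known as a transcription factor that maintains pluripotency. miRNAs are short RNAs that are cut from hairpin precursors and guide silencing complexes to messenger RNAs, mostly through the seed, bases 2 to 8 from the 5′ end. Many mouse miRNA genes lie in clusters that are transcribed together, and several such clusters were followed here. One sits in an intron of Sfmbt2 and encodes the miR-297, miR-466, miR-467 and miR-669 families. miR-196a and miR-10a are encoded among the HOX genes, which pattern the body axis. The imprinted Dlk1-Dio3 region and the X-linked Fx-mir cluster each hold many miRNAs, while let-7 members and miR-146 are encoded at separate loci.

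Each named miRNA was measured by up to 5 nested probes. Every probe matched the 3′ end of the miRNA, together with 1 base for the cytidine added by the labelling, and the probes differed in how far they reached towards the 5′ end. The matched stretch ran from 10 to 24 bases. Probes of the same miRNA therefore share most of their letters and are not independent, and their signals are not compared with each other as levels. Names were known for 520 probes of 110 miRNAs, and 98 of the 110 had 5 probes. All the names came from lists of changed miRNAs made by the study, which had listed 72 of the 110 for this very comparison, 49 as lower and 23 as higher. The direction of a named miRNA is thus not independent evidence.

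A selection of the miRNAs with 3 or more called probes is shown first, with the seed in capitals. Of the 110 sequences, 85 matched a mature miRNA of RefSeq (GRCm38.p6) by name, and all 85 had the same letters. Those lower in siOCT4-DMSO were:
mmu-miR-196a-1-3p: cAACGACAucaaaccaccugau
mmu-miR-669c-3p: uACACACAcacacacaaguaaa
mmu-miR-669a-3-3p: aCAUAACAuacacacacauguau
mmu-miR-466g: aUACAGACacaugcacacaca
mmu-miR-669b-3p: cAUAUACAuacacacaaacauau
mmu-miR-669m-3p: aUAUACAUccacacaaacauau
mmu-miR-5615-3p: uGUCUCAGaaaacaaccaagga
mmu-let-7i-5p: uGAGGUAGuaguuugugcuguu
Those higher in siOCT4-DMSO were:
mmu-miR-5616-3p: aACUUGUGaugaggugagacag
mmu-miR-871-5p: uAUUCAGAuuagugccagucaug
mmu-miR-883b-5p: uACUGAGAauggguagcaguca
mmu-miR-485-3p: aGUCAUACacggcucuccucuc
The seed UAUACAU was the one shared by most named miRNAs. It belonged to 6 members of the Sfmbt2 families, 5 of which had a called probe.

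Signals are given as log2 values after quantile normalization. Of the 9709 miRNA probes on the array, 8616 were tested, and a probe was called at an adjusted p under 0.05 and a change of at least 1.5-fold. Between siOCT4-DMSO and siNT-DMSO 120 probes (1.39% of those tested) were called, 87 of them lower (1.01%) and 33 higher (0.383%). On none of the 120 did the groups overlap, which choosing probes by adjusted p largely brings about. The 108 called probes that had a name belonged to 51 miRNAs, 36 with lower calls and 15 with higher calls, and no miRNA had calls in both directions. In 4 miRNAs all 5 probes were called, while in 26 miRNAs a single probe was. When the probes of each named miRNA were averaged, 18 of 8199 features (0.22%) were called, 13 lower and 5 higher, and 14 of the 18 were named miRNAs. The median change over all tested miRNA probes was 0.04.

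**Figure D1:**
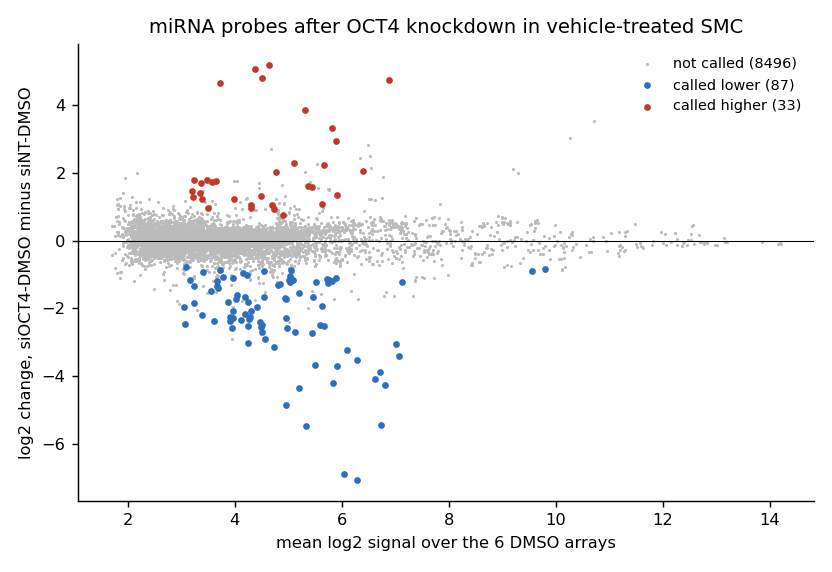
Change of each tested miRNA probe (y axis, siOCT4-DMSO minus siNT-DMSO, log2) against its mean log2 signal over the 6 DMSO arrays (x axis). Each point is 1 of 8616 probes, with 87 called lower in blue and 33 called higher in red. The called falls reach −7.07, at a probe of mmu-miR-196a-1-3p, and the 3 highest points are probes of mmu-miR-485-3p, for which no siNT-DMSO array was well above background.

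The plot of change against signal shows the called probes at low and middle signals, with only the let-7i-5p probes called above a mean of 9. Across the 87 probes called lower, the median of the group means went from 5.67 in siNT-DMSO to 3.41 in siOCT4-DMSO. Across the 33 called higher it went from 3.77 to 5.28. All 6 arrays were well above background for 77 of the 87 and for 21 of the 33. Of the 33, 4 had no siNT-DMSO array well above background.

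The arrays were not equally bright. The median signal before normalization was 24.1 on siOCT4-DMSO replicate 3 and between 5.58 and 8.73 on the other 11 arrays. That array lay on slide 2 and the other 5 DMSO arrays lay on slide 1. Within slide 1, which is the comparison without siOCT4-DMSO replicate 3, 126 miRNA probes were called, 77 lower and 49 higher, and 104 of the 120 calls were among them. With slide as a block the values were the same, since the lone array then carries no information. Leaving out another array gave between 72 calls, when it was siNT-DMSO replicate 3, and 167, when it was siNT-DMSO replicate 2, with 79 when it was siNT-DMSO replicate 1. Of the 120 calls, 69 held without each of the 6 arrays in turn.

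The deepest falls belonged to mmu-miR-196a-1-3p, the passenger-side strand of the precursor encoded by Mir196a-1 in the HoxB cluster (chr11:96265225-96265246, plus strand, GRCm38.p6). All 5 of its probes were called, with falls from 4.84 to 7.07 on the log2 scale. The 19-base probe read 9.87, 9.46 and 10.15 on the siNT-DMSO arrays and 3.30, 2.71 and 2.24 on the siOCT4-DMSO arrays. Every siNT-DMSO array was far above every siOCT4-DMSO array. This probe fell by 7.07 (SE 0.29, adjusted p 2.25e-05). Averaged over its 5 probes the miRNA fell by 5.94 (SE 0.36, adjusted p 0.000844). At least 4 of its 5 probes stayed called without any 1 array, and within slide 1 all 5 were called.

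The other strands encoded in the HOX clusters moved less. mmu-miR-196a-2-3p, from the HoxC cluster, had 1 of 3 probes called. Its 17-base probe read 4.23, 4.17 and 4.52 in siNT-DMSO and 2.60, 1.13 and 1.81 in siOCT4-DMSO, a fall of 2.46 (SE 0.34, adjusted p 0.0108) that was not called without siNT-DMSO replicate 1 or 3. Its neighbours of 16 and 19 bases changed by −0.74 and 0.32, so the probes of this miRNA disagreed in size and sign. mmu-miR-10a-3p changed by between −0.59 and −0.81 over 5 probes, the lowest adjusted p being 0.0853. mmu-miR-10a-5p, the strand best known for its function, had no called probe and changed by −0.14 to 0.05. Of the 4 named HOX miRNAs, 2 had a lower call and none had a higher one, while 36 of all 110 named miRNAs had a lower call.

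**Figure D2:**
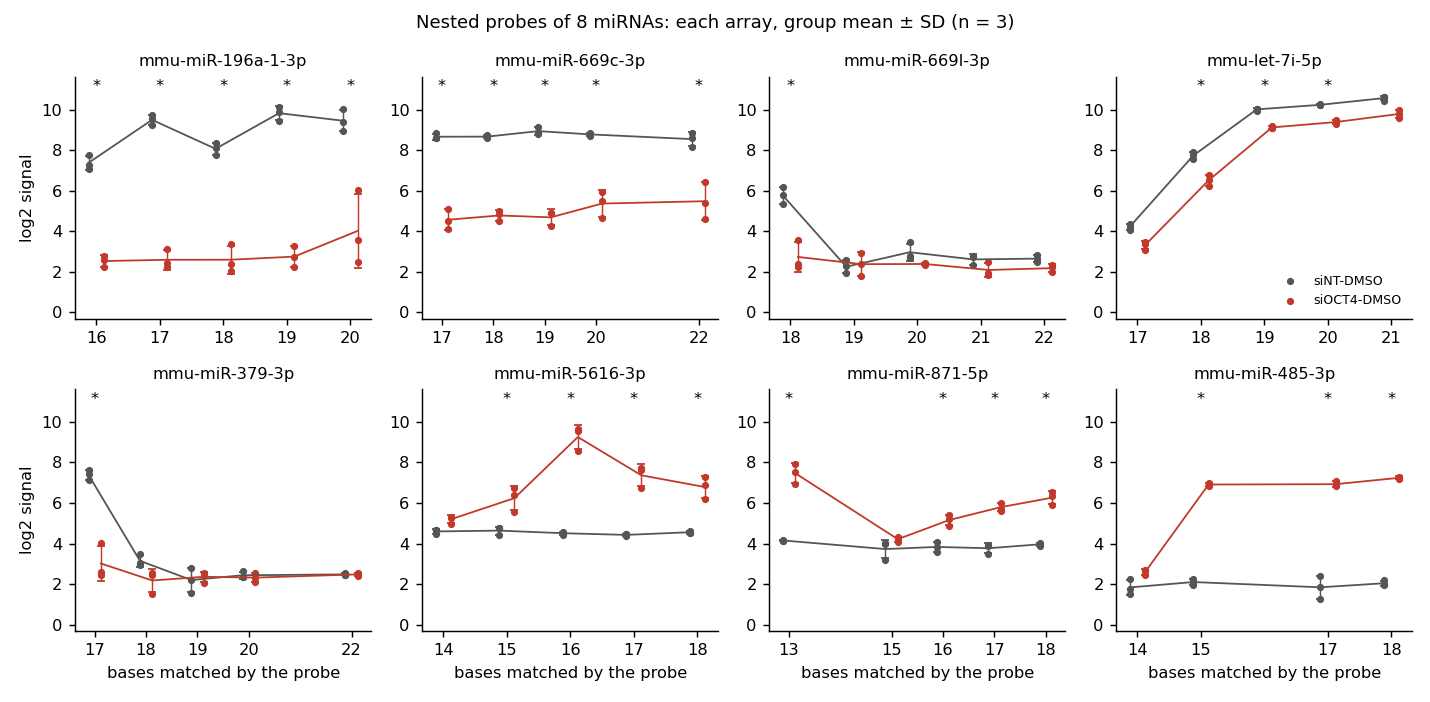
Log2 signal (y axis) of the nested probes of 8 miRNAs against the number of bases each probe matches (x axis) on the 3 siNT-DMSO arrays (grey) and the 3 siOCT4-DMSO arrays (red). Points are arrays, lines join group means, bars are SD (n = 3) and stars mark called probes. mmu-miR-196a-1-3p and mmu-miR-669c-3p were called at every length, mmu-miR-379-3p and mmu-miR-669l-3p at the shortest probe only.

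The plot of nested probes contrasts miRNAs that changed at all lengths with those that changed at only some. The Sfmbt2 families gave examples of both. Of their 20 named members 17 had a called probe, always lower. Several of these strands share their 3′ letters, where the probes match, so the members are not independent of each other. Whether a probe also read a related strand was not tested. Of the 100 probes of these families 42 were called, against lower calls for 1.01% of all miRNA probes and 78 of the 520 named ones. The median change over the 100 probes was −0.79, against 0.04 over all tested miRNA probes. The study had listed all 20 as changed, so the count describes its selection as well. RefSeq placed mmu-miR-466i-3p, mmu-miR-466q and mmu-miR-467g on chromosomes 13, 3 and 5. The other named members had no RefSeq entry under their name, so all 20 belong to the families by name and sequence only.

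mmu-miR-669c-3p fell most among them. Its 19-base probe read 8.82, 8.85 and 9.15 in siNT-DMSO and 4.92, 4.90 and 4.24 in siOCT4-DMSO, a fall of 4.25 (SE 0.22, adjusted p 7.91e-05). All 5 of its probes were called, with changes of −3.06 to −4.25, and all 6 DMSO arrays were well above background at each of them. The averaged signal fell by 3.74 (SE 0.26, adjusted p 0.00186). Every siOCT4-DMSO array was below every siNT-DMSO array at each length.

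mmu-miR-669a-3-3p and mmu-miR-466g also had all 5 probes called. The 19-base probe of mmu-miR-669a-3-3p read 5.87, 5.61 and 6.11 against 3.20, 3.04 and 3.26, a fall of 2.69 (SE 0.17, adjusted p 0.000229). Its 5 calls held without any 1 array. The 14-base probe of mmu-miR-466g read 6.36, 6.28 and 6.79 against 4.00, 3.85 and 3.49, a fall of 2.70 (SE 0.21, adjusted p 0.000528). Its longer probes fell by between 0.97 and 2.57.

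mmu-miR-669b-3p and mmu-miR-669m-3p, which end in the same letters, each had 4 of 5 probes called. Their changes ran from −1.75 to −2.56 and from −1.78 to −2.52. The uncalled probes were those of 22 and 20 bases, with an adjusted p of 0.0887 and 0.0886. In both miRNAs siNT-DMSO replicate 2 was the lowest of the 3 siNT-DMSO arrays at every length, and without it all 5 probes of each were called. mmu-miR-466i-3p and mmu-miR-466f-3p also had 4 of 5 called, with changes over all 5 probes of −0.69 to −1.23 and −0.66 to −1.24. Neither had a call without siNT-DMSO replicate 3, and mmu-miR-466i-3p had none without siOCT4-DMSO replicate 1.

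The other 10 members with a call had 1 or 2 called probes. mmu-miR-466m-3p had 2, and 9 members had 1. In mmu-miR-669l-3p, for example, the 18-base probe read 5.81, 5.34 and 6.17 in siNT-DMSO and 3.58, 2.23 and 2.39 in siOCT4-DMSO, a fall of 3.04 (SE 0.37, adjusted p 0.00601). The probe that was a single base longer changed by 0.13. The 3 members without a call were mmu-miR-466o-3p, mmu-miR-466q and mmu-miR-467b-3p, whose median changes were −0.22, −0.75 and −0.53. The letters ACACAC occur in 15 of the 36 miRNAs with a lower call, all 15 in these families. They also occur in 3 of the 59 named miRNAs without a call and in 0.655% of RefSeq mature miRNAs. Of the 15, RefSeq held only mmu-miR-466i-3p and mmu-miR-467g by name, so its share is not a like background for these families.

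A single called probe tended to be the one whose match began with the same few letters. In the pattern noticed after the values had been seen, the 5′-most matched letters were ACAU or AACAU. Such a start was found in 30 probes of 23 miRNAs, and 22 of the 30 (73.3%) were called lower, with a median change of −2.04. Among the other 490 named probes, 56 (11.4%) were called lower and 30 were called higher, with a median change of −0.34. Of the 19 miRNAs with exactly 1 lower call, the called probe began this way in 14. The count was chosen on these values and has no test.

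The matches are shown from their first matched base, with the shared start in capitals and the change of that probe after each:
mmu-miR-196a-1-3p: ACAUcaaaccaccugau, which changed by −6.90
mmu-miR-379-3p: AACAUgguccacuaacu, which changed by −4.36
mmu-miR-1912-3p: AACAUgcagugagaacu, which changed by −3.15
mmu-miR-669l-3p: ACAUacacacccauauau, which changed by −3.04
mmu-miR-8118: AACAUgacuaugcugaca, which changed by −2.89
mmu-miR-669a-3-3p: AACAUacacacacauguau, which changed by −2.69
mmu-miR-206-5p: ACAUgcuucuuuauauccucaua, which changed by −2.37
mmu-miR-449a-3p: ACAUgcgacugcucuc, which changed by −2.25
Within the Sfmbt2 families 11 of 13 such probes were called, against 31 of the other 87. Outside them 11 of 17 were called, against 25 of the other 403. Among the 8 that were not called, mmu-miR-302b-5p at 17 bases changed by −0.20 and mmu-miR-450b-3p by −0.35. A probe of mmu-miR-30c-5p, which read 9.91, 9.29 and 9.79 in siNT-DMSO, changed by −0.67.

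Outside the Sfmbt2 families the longer word ACAUG was held by 8 of 19 miRNAs with a lower call. Counting all families it was held by 11 of 36 with a lower call, 1 of 15 with a higher call, 3 of the 59 without a call and 2.44% of RefSeq mature miRNAs. The 11 named miRNAs outside the families that hold ACAUG had 42 probes. When the match started at the word or 1 base before it, 10 of 14 probes were called lower, with a median change of −2.11. When it started further upstream, so that the whole word and more was matched, 0 of 18 were called lower and 1 was called higher, with a median change of 0.14. When it started inside or after the word, 0 of 10 were called and the median was −0.12. The 10 called lower were already counted above among the probes that begin with ACAU or AACAU. The word and the window of starts were chosen on these values, so the counts are descriptions and have no test.

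**Figure D3:**
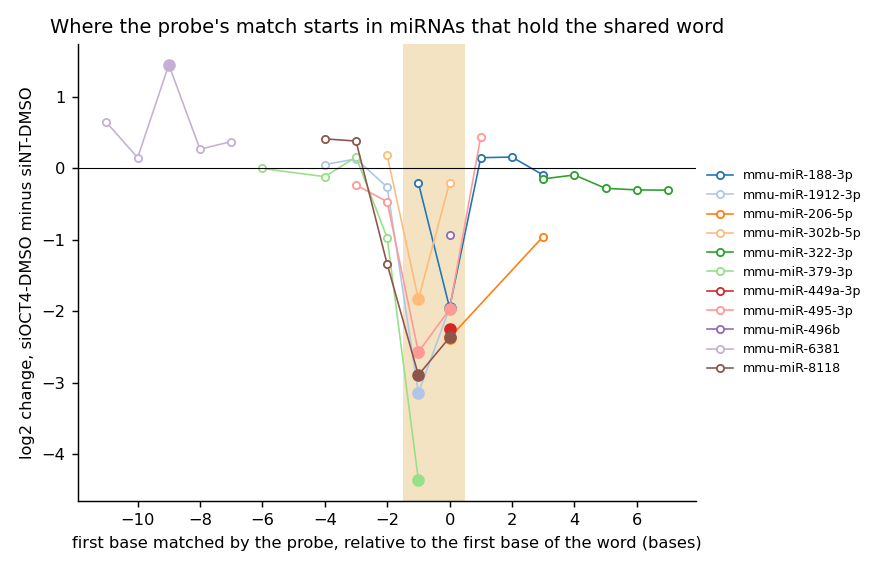
Change of each probe (y axis, siOCT4-DMSO minus siNT-DMSO, log2) against where its match begins relative to the first base of ACAUG (x axis, bases, 0 is the first base of the word) in the 11 miRNAs outside the Sfmbt2 families that hold it. Filled points are called probes and lines join the probes of a miRNA. The shaded band holds the 14 probes that begin at the word or 1 base before it, 10 of which were called lower. The word and the band were chosen on these values.

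The plot of match starts shows the falls as narrow dips. mmu-miR-379-3p, of the Dlk1-Dio3 region, read 7.42, 7.12 and 7.61 in siNT-DMSO and 4.01, 2.46 and 2.59 in siOCT4-DMSO at its 17-base probe. Its probe of 18 bases changed by −0.97 and those of 19, 20 and 22 bases by 0.16, −0.12 and 0.00. Averaged over the 5 probes the miRNA was not called (adjusted p 0.0563). mmu-miR-302b-5p, a strand of a cluster known from pluripotent cells, fell at its 18-base probe from 4.31, 3.90 and 4.25 to 2.37, 2.30 and 2.28, a fall of 1.83 (SE 0.16, adjusted p 0.000999). Its probes of 17 and 19 bases changed by −0.20 and 0.18. mmu-miR-8118 fell by 2.89 (SE 0.24, adjusted p 0.000854) at 18 bases, while its probes of 20 and 21 bases changed by 0.38 and 0.41 without a call.

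In the array probe the letter that pairs with the 5′-most matched base is followed directly by a constant linker, so a match that begins with these letters also sets which letters stand at that join. Of 174 words of 8 letters that occurred in at least 5 named probes of at least 3 miRNAs, CATGTTTA had the highest share of lower calls. It was held by 5 probes of 5 miRNAs, and all 5 were called lower. Its first 6 letters belong to the stretch that matches the miRNA and its last 2 to the linker. The probes are shown from the base that pairs with the added cytidine, with that word in capitals:
mmu-miR-379-3p: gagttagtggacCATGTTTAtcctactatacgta
mmu-miR-1912-3p: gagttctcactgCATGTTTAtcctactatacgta
mmu-miR-8118: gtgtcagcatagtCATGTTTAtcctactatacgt
mmu-miR-495-3p: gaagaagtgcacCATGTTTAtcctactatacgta
mmu-miR-302b-5p: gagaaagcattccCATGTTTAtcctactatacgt
These 5 probes changed by −4.36, −3.15, −2.89, −2.57 and −1.83. The related word ATGTTATC, which spans the join for matches that begin with ACAU, was held by 21 probes of 21 miRNAs, 15 of them called lower and 0 higher. The words were ranked by the calls themselves, so these counts are descriptions.

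Outside these groups some falls were carried by many probes and others by few. mmu-miR-5615-3p had 4 of 5 probes called. Its 21-base probe read 7.51, 7.75 and 8.05 in siNT-DMSO and 4.81, 3.74 and 3.66 in siOCT4-DMSO, a fall of 3.70 (SE 0.32, adjusted p 0.000854). Its average over 5 probes fell by 2.94, with an adjusted p of 0.0578 that missed the threshold. Without siNT-DMSO replicate 1, siNT-DMSO replicate 3 or siOCT4-DMSO replicate 2 it had 2 called probes. mmu-miR-7093-5p, from the X chromosome, had 4 of 5 probes called, with changes over all 5 of −0.93 to −1.47, and 1 was called without siNT-DMSO replicate 1 or 3. In mmu-miR-6903-5p the 19-base probe read 8.00, 7.66 and 8.16 against 4.53, 3.26 and 3.42, a fall of 4.20 (SE 0.33, adjusted p 0.000628), while the probes of 16 and 17 bases changed by −0.17 and 0.02. In mmu-miR-7065-5p the 16-base probe fell by 3.66 (SE 0.23, adjusted p 0.000229) and the 19-base probe changed by 0.02.

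The let-7 family, which restrains growth and the pluripotent state in many tissues, changed by −0.34 to −1.23 over its 20 named probes. The 18-base probe of mmu-let-7i-5p read 7.74, 7.56 and 7.90 in siNT-DMSO and 6.52, 6.76 and 6.24 in siOCT4-DMSO, a fall of 1.23 (SE 0.18, adjusted p 0.0162). Its 5 probes changed by −0.78 to −1.23, and 3 were called. No call of mmu-let-7i-5p remained without siNT-DMSO replicate 1, siNT-DMSO replicate 3 or siOCT4-DMSO replicate 1. mmu-let-7j had 1 of 4 probes called, at −0.86 (SE 0.15, adjusted p 0.042), and none when any 1 array was left out. mmu-miR-98-5p, mmu-let-7g-5p and mmu-let-7d-3p had median changes of −0.64, −0.40 and −0.73 and no called probe. In all, 4 of 20 probes of 5 members were called, all lower, against 1.01% of all miRNA probes and 78 of the 520 named ones.

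The strands mmu-miR-146a-5p and mmu-miR-146b-5p share the seed GAGAACU and are known as brakes on inflammatory signalling. mmu-miR-146a-5p had 2 of 5 probes called, and the larger change was that of the 17-base probe, from 6.33, 5.97 and 6.05 to 4.67, 5.13 and 4.92 (fall 1.21, SE 0.18, adjusted p 0.0162). Neither call held without siNT-DMSO replicate 1, siNT-DMSO replicate 3 or siOCT4-DMSO replicate 1. The 21-base probe of mmu-miR-146b-5p read 7.46, 6.05 and 7.24 in siNT-DMSO and 5.35, 5.44 and 5.50 in siOCT4-DMSO. siNT-DMSO replicate 2 stood between the other siNT-DMSO arrays and the siOCT4-DMSO arrays, and the change of −1.49 (SE 0.34, adjusted p 0.119) was not called. Without that array all 5 probes of mmu-miR-146b-5p were called, with a median change of −1.91.

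The same array stood out for mmu-miR-195a-5p, a member of the miR-15/16 seed family. Its 18-base probe read 6.75, 4.67 and 6.56 in siNT-DMSO and 4.39, 4.44 and 4.54 in siOCT4-DMSO. None of its 5 probes was called, and without siNT-DMSO replicate 2 all 5 were, with a median change of −1.71. For mmu-miR-27b-3p the changes were −0.56 to −1.08 with no call, and without that array 1 of 5 probes was called. mmu-miR-206-5p, a strand of a myogenic miRNA gene, had 1 of 2 probes called, at −2.37 (SE 0.24, adjusted p 0.00237), while for the other no siNT-DMSO array stood well above background.

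Among the rises, mmu-miR-5616-3p had 4 of 5 probes called, as did mmu-miR-871-5p and mmu-miR-883b-5p. Its 16-base probe read 4.43, 4.53 and 4.58 in siNT-DMSO and 9.63, 9.55 and 8.57 in siOCT4-DMSO. The siNT-DMSO arrays lay close together at that probe, and the siOCT4-DMSO arrays were all far above them. The rise was 4.74 (SE 0.28, adjusted p 0.000153). The probes of 15, 17 and 18 bases rose by 1.60, 2.94 and 2.23, and that of 14 bases changed by 0.60 without a call. Averaged over the 5 the rise was 2.42 (SE 0.24, adjusted p 0.00913).

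mmu-miR-485-3p, of the imprinted Dlk1-Dio3 region (chr12:109734946-109734967, plus strand, GRCm38.p6), had none of the siNT-DMSO arrays well above background. Its 18-base probe read 7.30, 7.17 and 7.25 in siOCT4-DMSO and was at least 24.1-fold higher there (adjusted p 4.31e-06). The 15-base and 17-base probes were at least 19.2-fold and at least 19.4-fold higher. The 14-base probe, a single base shorter, read 2.26, 1.51 and 1.74 against 2.44, 2.64 and 2.69 and was not called. The 3 calls held without any 1 array. No siNT-DMSO array helped these probes past the filter on dim signals. The filter thus favoured a difference, and the p-values are given as a description.

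The rest of the Dlk1-Dio3 region moved in both directions. Of the 10 named members of its list 2 had lower calls, mmu-miR-379-3p and mmu-miR-495-3p, and 2 had higher calls, mmu-miR-485-3p and mmu-miR-410-5p. mmu-miR-410-5p had 2 of 5 probes called at 0.97 and 1.05, and no probe was called without siNT-DMSO replicate 1, siNT-DMSO replicate 3, siOCT4-DMSO replicate 1 or siOCT4-DMSO replicate 2. mmu-miR-299a-3p had no call and changed by −2.91 (SE 0.64, adjusted p 0.103) at its 14-base probe, where siOCT4-DMSO replicate 1 read 4.17 and the other arrays of that group 1.75 and 1.54. All 5 probes of mmu-miR-494-3p were higher in siOCT4-DMSO with no call, with a median change of 1.22, and on the POVPC arrays they changed by −0.04 to −0.64. The median over the 44 probes of the list was 0.27. The list holds mmu-miR-496b by name, although RefSeq places it on chromosome 19, and its 1 probe was not called.

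The Fx-mir cluster on the X chromosome, known for miRNAs of the testis, gave calls in 1 direction. Of its 4 named members 3 had higher calls. Of its 20 probes 9 were called higher and none lower, against higher calls for 0.383% of all miRNA probes and 30 of the 520 named ones. The study had listed 3 of the 4. The 13-base probe of mmu-miR-871-5p (chrX:66810472-66810494, minus strand, GRCm38.p6) read 4.13, 4.15 and 4.19 in siNT-DMSO and 6.94, 7.94 and 7.55 in siOCT4-DMSO, a rise of 3.32 (SE 0.25, adjusted p 0.000486). Its 15-base probe changed by 0.49 without a call, and the probes of 16, 17 and 18 bases rose by 1.32, 2.02 and 2.30.

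mmu-miR-883b-5p rose evenly over its probes. They changed by 1.30 to 1.79, 4 of 5 were called, and the average over the 5 rose by 1.59 (SE 0.20, adjusted p 0.0252). Without siNT-DMSO replicate 3 or siOCT4-DMSO replicate 2 only 2 probes were called. The 17-base probe read 2.59, 2.87 and 2.30 in siNT-DMSO and 4.59, 4.55 and 3.98 in siOCT4-DMSO, and 1 of the 3 siNT-DMSO arrays was well above background there. mmu-miR-881-5p had 1 of 5 probes called, at 1.78 (SE 0.32, adjusted p 0.0407), and of the 6 arrays siNT-DMSO replicate 3 was the only one that could be left out with the call kept. The remaining member, mmu-miR-547-5p, changed by −0.36 to −0.69 with no call.

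The letters CAGUCA were held by 4 of the 15 miRNAs with higher calls, by none of the 36 with lower calls or the 59 without a call and by 0.774% of RefSeq mature miRNAs. They are shown in capitals:
mmu-miR-871-5p: uauucagauuagugcCAGUCAug
mmu-miR-883b-5p: uacugagaauggguagCAGUCA
mmu-miR-881-5p: cagagagauaaCAGUCAcaucu
mmu-miR-6950-5p was the remaining one, with 1 of 5 probes called at 1.40 (SE 0.17, adjusted p 0.00486). The word was picked after the calls were known.

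Other rises rested on 1 or 2 probes. mmu-miR-3086-3p and mmu-miR-6987-5p had 2 of 5 probes called, with the largest at 1.60 (SE 0.20, adjusted p 0.00626) and 1.35 (SE 0.15, adjusted p 0.00365). The smaller call of mmu-miR-3086-3p was lost without any 1 array. mmu-miR-12184-3p had 2 of 5 called, at 1.22 and 1.78, while its 3 shorter probes changed by 0.07 to 0.17. Without siNT-DMSO replicate 3 or siOCT4-DMSO replicate 2 it had no call. mmu-miR-3076-5p had a signal above background after knockdown alone, and its 10-base probe was higher in siOCT4-DMSO by at least 10.6-fold (adjusted p 0.00702), with the same limit from the filter as for mmu-miR-485-3p. mmu-miR-7675-5p had 1 of 5 called, at 0.97, and it had no call when any 1 array other than siOCT4-DMSO replicate 3 was left out.

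The number of matched bases did not sort the calls in a simple order. Among named probes 11.5% were called where 15 or fewer bases were matched, 22.8% at 16 or 17, 25.0% at 18 or 19 and 23.9% at 20 or more. Probes of 15 or fewer bases had 5 lower and 10 higher calls, and probes of 20 or more had 24 lower and 3 higher. These are shares of probes chosen through the lists made by the study.

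Some lists gave no call. With so few probes, 0 calls lies near the share over all miRNA probes. It lies below the share over named probes, of which 108 of 520 were called. The names came from lists of changed miRNAs and probes of a miRNA are not independent, so 0 calls is no result about a list. The X-linked miR-322 cluster had 0 of 30 probes of 6 named members called, where 1.39% of all miRNA probes were, and its median change was −0.20. On the miR-15/16 list 0 of 10 probes of its 2 named members, mmu-miR-195a-5p and mmu-miR-322-5p, were called, with a median of −0.80. mmu-miR-1907, which shares their seed AGCAGCA but was not on the list, had no call and a median change of −0.08. mmu-miR-96-5p, which the text of the study names for this comparison, had no call over 5 probes and changed by −0.18 to 0.54.

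Of the 12 called miRNA probes without a name, 9 were lower and 3 higher. The probe numbered 2004 read 5.84, 5.71 and 5.91 in siNT-DMSO and 3.79, 4.21 and 4.32 in siOCT4-DMSO, a fall of 1.72 (SE 0.18, adjusted p 0.00283). The probe numbered 4045 fell by 1.68 (SE 0.20, adjusted p 0.0047). Probes 6181 and 3602 rose by 1.24 (SE 0.21, adjusted p 0.0314) and 1.07 (SE 0.16, adjusted p 0.0178).

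The array also carried 2716 probes with the code PST and 1767 with the code TRF, which the sources used here do not spell out. Among the 2006 of them that were tested, 31 (1.55%) were called, 26 of 334 PST probes (7.78%) and 5 of 1672 TRF probes (0.299%). Of the 26 PST probes 17 were higher and 9 lower. In 16 of the 17 no siNT-DMSO array and every siOCT4-DMSO array was well above background, and in 7 of the 9 the reverse held. For a probe that passed the filter through 1 group alone the filter favoured a difference, so the PST share describes which probes could be tested.

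The PST probe numbered 5441 stood at the lowest normalized value on all 3 siNT-DMSO arrays and at 9.95, 9.89 and 9.73 on the siOCT4-DMSO arrays. It was at least 147-fold higher after knockdown (adjusted p 3.08e-07). The p-values of such probes, here and in what follows, are descriptions for the reason just given. Probes 2319 and 24965 were at least 31.7-fold higher (adjusted p 0.000401) and at least 14.4-fold higher (adjusted p 0.00203). In the other direction probe 1324 read 6.41, 5.81 and 6.68 in siNT-DMSO and was at least 20.1-fold lower in siOCT4-DMSO (adjusted p 0.00203), where no array was well above background. Probes 15226 and 5580 were at least 11.3-fold lower (adjusted p 0.00108) and at least 7.72-fold lower (adjusted p 3.37e-05).

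Among the TRF probes the number 336 read 2.44, 1.94 and 2.90 in siNT-DMSO and 7.60, 7.44 and 6.65 in siOCT4-DMSO, a rise of 4.80 (SE 0.34, adjusted p 0.00203). Only 1 of the 3 siNT-DMSO arrays was well above background there. Probes 344 and 3142 rose by 2.40 (SE 0.26, adjusted p 0.0106) and 1.02 (SE 0.14, adjusted p 0.0349). Probe 4646 was the only TRF probe called lower, at −1.82 (SE 0.17, adjusted p 0.00739).

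**Figure D4:**
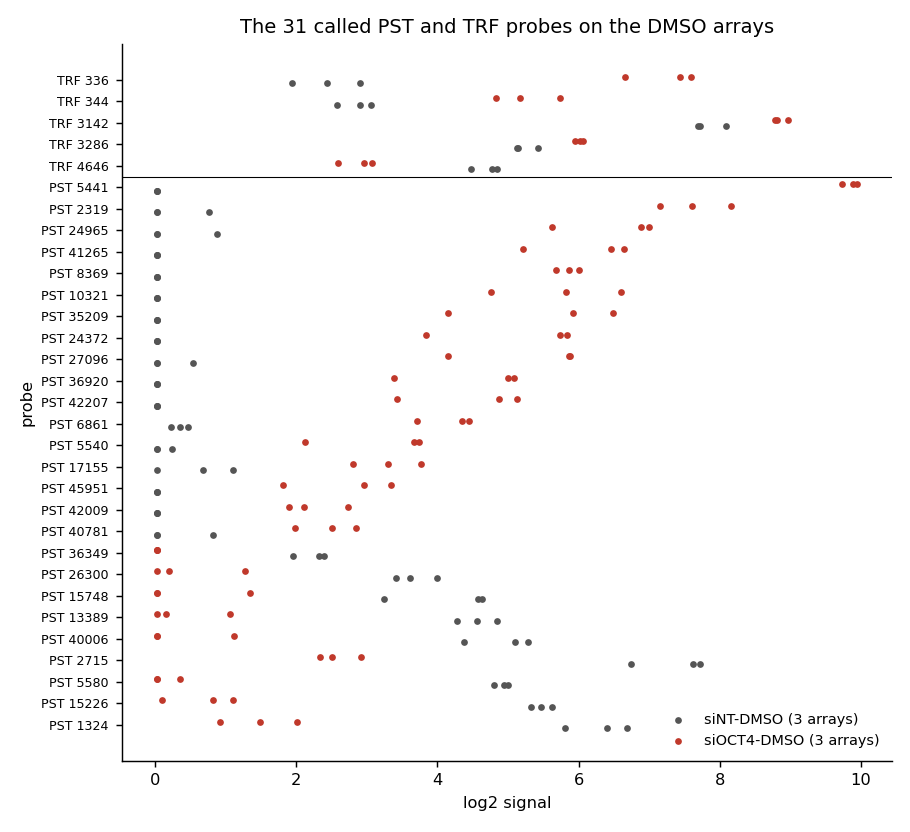
Log2 signal (x axis) of the 31 called PST and TRF probes (y axis, by number) on the 3 siNT-DMSO arrays (grey) and the 3 siOCT4-DMSO arrays (red). Points are arrays, and points at the left edge are at or near the lowest normalized value. The siNT-DMSO arrays lie at or near the left edge for the 17 PST probes called higher, and the siOCT4-DMSO arrays do so for most of the 9 called lower.

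The plot of PST and TRF probes shows that most PST calls were differences between a measured group and one without a signal above background. With normexp background correction, which adds an offset of 50 and so more than the median signal of any array, 2 of the 31 calls remained. Leaving out siNT-DMSO replicate 1 or 3 gave 15 calls, and leaving out siNT-DMSO replicate 2 gave 52. Of the 31 calls 15 held without each of the 6 arrays in turn.

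The POVPC arrays, which are separate arrays with the same siRNA pools, gave the same contrast after another treatment. All 120 called miRNA probes moved in the same direction there, as did 5174 of all 8616 tested probes. By at least 1.5-fold 115 of the 120 (95.8%) did so, against 430 of the 8616 (4.99%). The median over the 87 lower calls was −1.97 in DMSO and −2.33 in POVPC, and over the 33 higher calls 1.70 and 2.04. The siOCT4-POVPC arrays all lay on slide 2 and the siNT-POVPC arrays on slide 1, so slide and knockdown cannot be told apart in that contrast. Most called PST probes were above background in 1 siRNA group alone, and the POVPC arrays counted towards the filter. Their directions in POVPC are therefore descriptions, given without a share over all tested PST and TRF probes. The 26 called PST probes moved the same way in POVPC and 4 of the 5 TRF probes did so by at least 1.5-fold. The exception was TRF probe 3142, at 1.02 in DMSO and 0.06 in POVPC, a difference that was not tested.

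**Figure D5:**
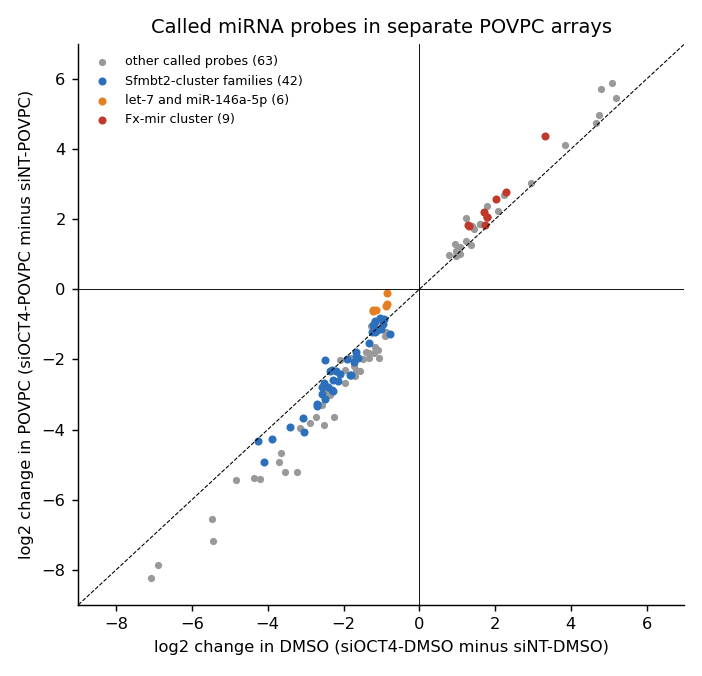
Change of the 120 called miRNA probes with knockdown in POVPC-treated cells (y axis, siOCT4-POVPC minus siNT-POVPC, log2) against the change in vehicle (x axis, siOCT4-DMSO minus siNT-DMSO, log2). Each point is a probe and the dashed line marks equal changes. All 120 points lie in the lower left or upper right quadrant, and the let-7 and miR-146a-5p probes (orange) lie nearest to 0 on the y axis.

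In the plot of the 2 treatments, 17 of the 120 probes lacked a signal well above background throughout a POVPC group, so their position on that axis is a measured difference and not a bounded fold. The 5 probes that changed by less than 1.5-fold in POVPC belonged to mmu-let-7j, mmu-let-7i-5p and mmu-miR-146a-5p. The called probe of mmu-let-7j changed by −0.86 in DMSO and −0.09 in POVPC. The 2 called probes of mmu-miR-146a-5p changed by −1.21 and −1.15 in DMSO and by −0.58 each in POVPC. For mmu-let-7i-5p the 20-base probe changed by −0.85 and −0.42.

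The difference between the knockdown effects was tested across all 12 arrays. Limma called 0 of 8609 miRNA probes, the lowest adjusted p being 0.878, and 303 probes passed an unadjusted p under 0.05 with a difference of at least 1.5-fold. The lowest adjusted p among the probes of mmu-let-7j was 0.878. With slide as a block 370 probes were called, in a fit that sets slide apart from group through siOCT4-DMSO replicate 3 alone. A difference between vehicle and POVPC was therefore not shown, and an equal effect was not shown either.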

How the data were processed

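Small RNA from 12 samples of MASMC was labelled with Cy3 and hybridized to 1-colour Agilent small RNA arrays. Per the file headers, the deposited intensity values are the processed signals of Agilent Feature Extraction 11.0.1.1, which had been background-subtracted. The authors also deposited a table of log2 values of the same arrays, used here as an alternative only. Columns of the authors' own comparisons were not used.

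Control spots and outlier-flagged spots were left out and spots of a probe were averaged. Signals were quantile-normalized over all 12 arrays, given a floor of 1 and put on the log2 scale. Testing was limited to probes that 3 or more of the 12 arrays showed well above background, and 5 miRNA probes that passed were dropped for outlier flags. The 3 siOCT4-DMSO and 3 siNT-DMSO arrays were compared with limma 3.58.1 (R 4.3.3), two-sided, with Benjamini-Hochberg adjustment over miRNA probes and separately over PST and TRF probes. Calls had an adjusted p under 0.05 and differed by 1.5-fold or more. For a single value, 3 against 3 arrays allow no exact permutation p below 0.1. Where no array of a group was well above background, only a bound is given: the mean of the measured group against, on each array of the other group, its dimmest signal well above background or the signal of the probe itself, whichever was higher. The fit was tested on simulated data. The number of arrays limits the precision.

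Groups were taken from the source name, because the description field of 9 samples contradicted it. Probe names and sequences came from the supplementary lists of the study, and no value was taken from them. Named here are, per direction, the 12 miRNAs with the most called probes, up to 4 members of each miRNA list, the 3 PST and 3 TRF probes per direction and the 2 unnamed miRNA probes per direction with the largest changes, and miRNAs the study names for this comparison. mmu-miR-6903-5p, mmu-miR-7065-5p and the miRNAs shown for their shared letters were named after their values were seen. The members and lists were chosen with earlier results of these data known. Alternatives were other scalings, background correction, filters, thresholds, blocks, the methods' t-test and leaving out each array.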

Additional observations from a re-analysis of the deposited data

How the results depend on the processing

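Against 120 called miRNA probes, limma called 36 with normexp background correction, 61 with a floor of 8, 212 with all 12 arrays in 1 fit and 415 with an unadjusted p. The methods' t-test called 287 unadjusted and 15 after Benjamini-Hochberg adjustment, and averaging the probes of each named miRNA gave 18. Leaving out 1 array gave 72 (without siNT-DMSO replicate 3) to 167 (without siNT-DMSO replicate 2), with 79 without siNT-DMSO replicate 1. Other scalings, filters and the authors' log2 values gave 90 to 141. With slide as a block the share of lower calls was 61.1%, against 72.5%. Against 31 called PST and TRF probes (32.3% lower), there were 2 with normexp, 12 with a floor of 8, 15 with no filter on dim probes, 50 with all 12 arrays in 1 fit, 91 with an unadjusted p, 75 by the methods' t-test and 9 by that test after adjustment, and leaving out 1 array gave 15 (without siNT-DMSO replicate 1 or without siNT-DMSO replicate 3) to 52 (without siNT-DMSO replicate 2). Of probes well above background on all 6 DMSO arrays 2 were called, and of those well above background on all 12 limma called 0, with 42 at an unadjusted p and a lowest adjusted p of 0.167. The authors' log2 values gave 21, 47.6% of them lower. Scaling to the 75th percentile of all small RNA probes moved the median change of PST and TRF probes to −0.241, and that of probes well above background to −0.165. PST 40781 and PST 42009 lost their direction with a floor of 8, where both changed by −0.0, since both groups then stand at the floor. For the difference of knockdown effects between DMSO and POVPC, limma called 0 in the reported fit, 303 at an unadjusted p and 370 with slide as a block, and 0 without any 1 array. The causes of these differences were not tested, except where fewer probes or arrays were entered.

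Whether the replicate numbers pair the arrays is not settled. The deviations of same-numbered siNT-DMSO and siOCT4-DMSO arrays correlated at −0.0433, 0.351 and 0.278, those of unlike-numbered arrays at −0.326 to 0.134. With the replicate block 114 miRNA probes and 24 PST and TRF probes were called, and the difference of knockdown effects had 0 calls. Over all single called probes and alternatives, 2657 of 3354 results kept their direction and their side of the threshold, 695 kept the direction only and 2 lost it.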
